A study of Mus musculus with 12 samples.

Results

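Myc and 40 genes of ribosome assembly in the nucleolus were followed in dormant and growing D2A1 cells, a mouse mammary carcinoma line, recovered from the lungs of mice. The genes were chosen by symbol, each matched 1 row in the table of 54146 genes, and all 41 were among the 13002 genes that passed the filter for testing, a level of 1 TPM (the share of transcripts after correction for gene length) or more in 3 or more of the 12 libraries. Tumor cells carried a histone H2B-GFP reporter and the membrane dye CellVue Claret, which is diluted at each division, and were sorted as dormant (dye kept) or growing (dye lost) after tail vein injection. The 4 groups held 3 libraries each, namely dormant and growing cells from control hosts, labelled WT, and dormant and growing cells from Tgfbr2 KO hosts. Per the study's methods the KO hosts (Tgfbr2 MyeKO) lacked the receptor TβRII in myeloid cells through LysM-Cre, driven by the Lyz2 promoter, and the controls carried the floxed allele without that deletion. The tumor cells in all 4 groups were of the same line and were not themselves edited at Tgfbr2. The study's methods give the hosts as female mice aged 6 to 8 weeks.

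Ribosomes are assembled in the nucleolus, where RNA polymerase I transcribes the precursor of the ribosomal RNAs and a large set of factors cuts, modifies and folds it. Box C/D and box H/ACA small nucleolar ribonucleoproteins (snoRNPs) methylate and pseudouridylate that RNA, the small subunit processome builds the small subunit, and other factors, the PeBoW complex among them, mature the large subunit. Myc is a transcription factor that binds E-box sites with its partner Max, is known to drive many of these genes, and couples ribosome production to growth. Ribosome assembly is therefore known as a process that is high in dividing tumor cells and low in resting ones.

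The canonical E-box, the palindrome CACGTG, was searched for in RefSeq promoter windows (build GRCm38.p6, 250 bases before to 50 after each start, both strands), which were found for 35 of the 41 genes. The motif lay in 8 of the 38 windows of these genes (21.1%), in 7.15% of all 32851 windows of the table and in 9.64% of the 11047 windows of tested genes. The related motif CACGCG, or its reverse complement CGCGTG, lay in 12 of the 38 windows (31.6%), against 9.27% of all windows and 16.7% of those of tested genes. The 8 genes with CACGTG were Imp4, Nop2, Pes1, Wdr43, Tsr1, Ltv1, Pno1 and Mybbp1a. A match is a description of the letters and not a site of binding. The 4 of them with the highest mean TPM are shown, with CACGTG in capitals and the strand of the gene read 5′ to 3′. Imp4 is shown over the 250 bases before the start, at chr1:34439579-34439828 on the plus strand, and the others only around the motif, which lay after their start, at chr11:17211540-17211564 on the minus strand (Pno1), chr17:71616220-71616249 on the plus strand (Wdr43) and chr11:72441355-72441376 on the plus strand (Mybbp1a).
Imp4: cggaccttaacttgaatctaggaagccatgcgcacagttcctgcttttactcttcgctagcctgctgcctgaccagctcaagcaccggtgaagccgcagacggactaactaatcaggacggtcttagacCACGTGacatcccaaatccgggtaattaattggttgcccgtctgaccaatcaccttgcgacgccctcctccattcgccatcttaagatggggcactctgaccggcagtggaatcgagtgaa
Pno1: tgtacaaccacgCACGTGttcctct
Wdr43: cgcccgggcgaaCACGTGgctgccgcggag
Mybbp1a: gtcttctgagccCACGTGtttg
The first base of the motif was at -121 in Imp4, +38 in Pno1, +18 in Wdr43 and +41 in Mybbp1a, counted from the start.

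Properties of the libraries bear on every value below. Every WT library was of library batch 1 and every KO library of batch 2, so host and batch cannot be told apart, whereas each comparison of dormant with growing cells lay within a batch. Dormant WT libraries varied most, with correlations of log2(TPM + 1) between libraries of 0.666 to 0.715 over the tested genes, against 0.866 to 0.882 in dormant KO, 0.949 to 0.952 in growing WT and 0.914 to 0.922 in growing KO libraries. In dormant WT library 2, 36.2% of the tested genes and 8 of the 41 genes here (19.5%) were listed at 0 TPM. Dormant KO libraries held high levels of markers of other lung cell types. The summed TPM of 10 alveolar type 2 markers was 40207 to 42496 there and at most 472 in any other library, with Sftpc at 36571 to 39284 TPM, and 5 erythroid genes summed to 50831 to 56264 TPM against at most 13031 elsewhere. The 8 endothelial and 8 leukocyte markers summed to 734 to 777 and 4227 to 4451 TPM in dormant KO libraries. The sums were 11.4 to 64.9 and 345 to 935 TPM in dormant WT libraries. They were 5.35 to 8.78 and 51.9 to 82.5 TPM in growing WT and 36.1 to 45.0 and 114 to 120 TPM in growing KO libraries. Of these lists, 8 of 10, 4 of 5, 8 of 8 and 4 of 8 genes were called higher in dormant than in growing KO cells, where 8.31% of all tested genes were. In WT hosts only leukocyte genes of these lists were called higher in dormant cells, 3 of 8 (37.5%, against 1.85% of all tested genes). Spp1 and Akr1c18, which are abundant in the growing libraries and were chosen for that, summed to 1249 to 1520 TPM in dormant KO libraries and to 30289 or more in all 9 others. Of the epithelial markers, Cldn4 was listed at 0 TPM in all 12 libraries and Epcam and Cdh1 did not exceed 5.34 TPM, while Krt8 and Krt18 ranged from 52.1 to 381 and from 131 to 519 TPM. In dormant KO cells Krt8 and Krt18 were lower than in growing KO cells (log2 differences -1.58 and -1.39, limma adjusted p = 0.00761 and 0.00203), whereas Krt19 was higher (4.51, limma adjusted p = 0.00132), at 252 to 418 TPM there and at most 14.2 TPM in the other libraries. TPM is a share of each library, so a level in dormant cells of either host is a share of a mixture with the makeup given above. The part of that makeup in the results below was not tested. In bulk libraries, fewer cells of a type and less RNA per cell cannot be told apart.

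Levels of the 41 genes spanned a wide range. Their mean TPM over the 12 libraries ran from 1.69 to 783 with a median of 35.1, 8 genes were above 100 and 9 under 10. The most abundant was Npm1, encoding nucleophosmin, a nucleolar chaperone (chr11:33152287-33163206, minus strand, GRCm38). Summed over the 41 genes, the level was 2681, 2524 and 3155 TPM in dormant WT libraries 1 to 3 and 4289, 4379 and 4367 TPM in growing WT libraries. In KO hosts the sum was 1800, 2083 and 1837 TPM in dormant and 4893, 4537 and 4948 TPM in growing libraries. The 6 dormant sums all lay below the 6 growing ones, and the dormant mean was 64.1% of the growing mean in WT and 39.8% in KO hosts. After scaling by median ratios, which sets the typical gene equal between libraries, the sums were 2299 to 2968 in dormant WT and 2537 to 2590 in dormant KO libraries, which overlapped, while growing libraries were at 3849 to 4514.

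**Figure D1:**
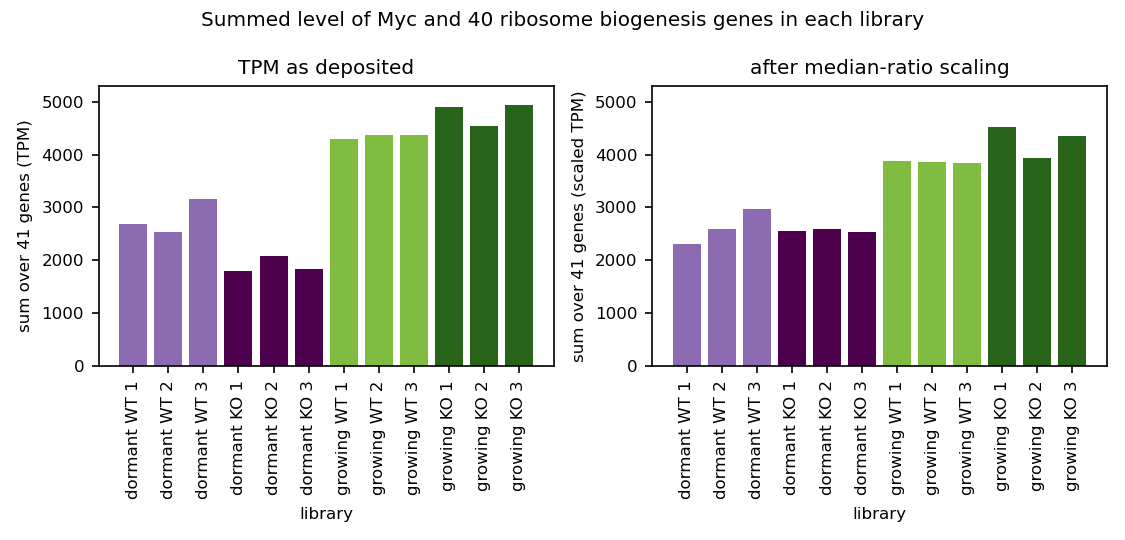
Summed level of Myc and 40 ribosome biogenesis genes in each library (bars, 1 per library), as deposited TPM on the left and after median-ratio scaling on the right. On both scales every growing library stands above every dormant one, and dormant KO lies below dormant WT only on the left, at 1800 to 2083 against 2524 to 3155 TPM.

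**Figure D2:**
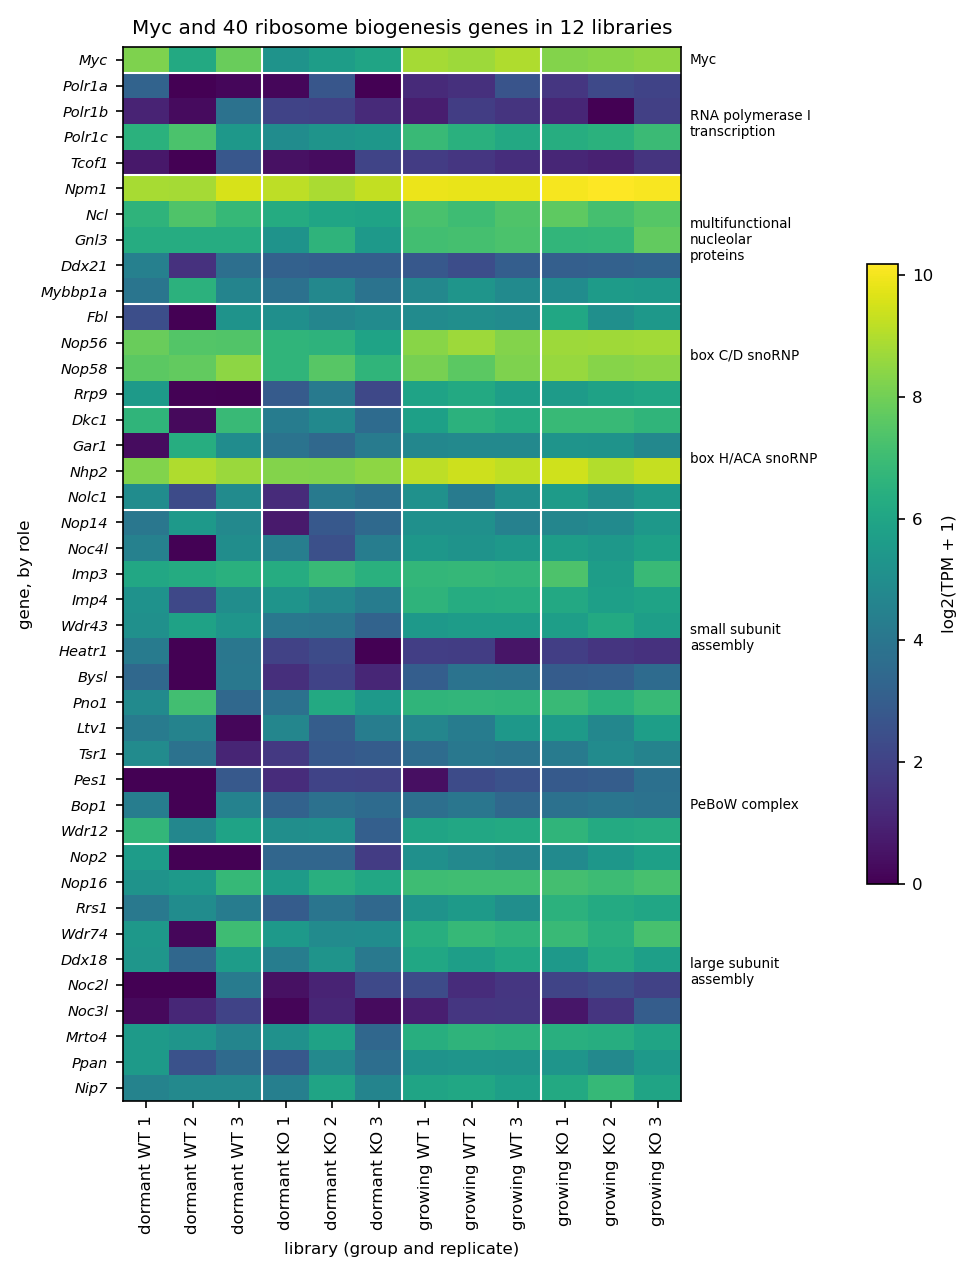
Level of each of the 41 genes (rows, by role) in each of the 12 libraries (columns, by group), as log2(TPM + 1) in color. Growing libraries look alike within each host, and the dark cells of dormant WT library 2 include the 8 genes listed at 0 TPM.

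Myc (ENSMUSG00000022346, chr15:61985391-61990374, plus strand) had 299, 72.1 and 232 TPM in dormant WT libraries 1 to 3 and 446, 411 and 495 TPM in growing WT libraries. In KO hosts it had 36.7, 50.3 and 60.2 TPM in dormant and 310, 331 and 355 TPM in growing libraries. No dormant library reached the lowest growing library of its host, and all dormant KO libraries lay below all dormant WT libraries. The mean was 201 ± 117 TPM (SD, n = 3) in dormant WT, 49.1 ± 11.8 in dormant KO, 451 ± 41.8 in growing WT and 332 ± 22.2 in growing KO cells (n = 3 each), so that dormant cells held 44.6% of the growing level in WT and 14.8% in KO hosts. In the limma fit across all genes, on log2(TPM + 1) and with Benjamini-Hochberg adjustment over the 13002 genes, Myc was lower in dormant KO than in growing KO cells by a log2 difference of -2.76 ± 0.43 (SE, adjusted p = 0.000866). The difference in WT hosts was -1.39 ± 0.43 (95% interval -2.32 to -0.45, limma adjusted p = 0.0698) and did not pass. Dormant cells of KO hosts were lower than those of WT hosts by -1.81 ± 0.43 (limma adjusted p = 0.00891), whereas growing cells differed by -0.44 (95% interval -1.37 to 0.50, limma adjusted p = 1). The state difference itself was larger in KO than in WT hosts by -1.37 ± 0.60, which did not pass (limma adjusted p = 0.196). A two-sided exact permutation test of log2(TPM + 1) gave p = 0.1 in each of the 4 pairwise comparisons, the smallest value that 3 against 3 libraries allow. Without dormant WT library 2, the lowest of its group, the difference between states in WT hosts was -0.77 (limma adjusted p = 0.0552), the host difference in dormant cells -2.43 (limma adjusted p = 4.18e-05) and the difference between the state effects -1.99 (limma adjusted p = 0.00262, called).

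In WT hosts, dormant cells were compared with growing cells to ask whether ribosome assembly genes were lower in the dormant state. No gene of the 41 was called, with a call set at a limma adjusted p of at most 0.05 and a log2 difference of at least 1, against 5.67% of all tested genes called lower and 1.85% called higher. Of the 41 genes, 12 were lower and 0 higher at an unadjusted p under 0.05 (29.3% lower, against 18% of all tested genes lower and 5.93% higher). The groups of libraries did not overlap, with dormant below growing, for 14 genes (34.1%, against 19.4% of all tested genes), and for 0 in the opposite direction (7.22% of all tested genes). The difference was below 0 for 37 of the 41 genes (90.2%, against 62.4%), with a median of -0.81 beside -0.35 over all tested genes. The leukocyte markers described above also differed between the same libraries, and their part in these differences was not tested. Npm1 and Nop56 had an adjusted p of at most 0.05 with a log2 difference under 1 (6.51% of all tested genes were lower at that p alone). The largest differences belonged to genes listed at or near 0 TPM in some dormant libraries. Rrp9, a box C/D snoRNP factor, had 45.8, 0.04 and 0 TPM in dormant and 58.5, 71.9 and 51.4 TPM in growing WT libraries (log2 difference -4.06 ± 1.2, limma adjusted p = 0.0609). Heatr1, a small subunit processome factor, went the other way, at 17.8, 0 and 15.6 TPM in dormant and 2.69, 2.63 and 0.50 TPM in growing libraries (1.32 ± 1.04, limma adjusted p = 0.481). Without dormant WT library 2 Heatr1 was called higher (2.70) and Imp4 (-1.33) and Pno1 (-2.51), both of the small subunit, were called lower, which is 2.44% and 4.88% of the 41 against 3.18% and 6.46% of all tested genes. Without library 1 or library 3, 6 genes were called lower (14.6%, against 11.8% and 8.04% of all tested genes), Myc and Imp4 in both cases.

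In KO hosts the same comparison gave 10 genes called lower and 0 higher, or 24.4% of the 41, against 9.48% of all tested genes called lower and 8.31% called higher. They were Myc, Polr1c, Ncl, Gnl3, Nop56, Nop58, Nop14, Wdr43, Wdr12 and Rrs1. The libraries did not overlap for 30 genes, with dormant below growing in all 30 (73.2%, against 28.3% of all tested genes), and the difference was below 0 for 40 of 41 (97.6%, against 60.2%) with a median of -1.38 beside -0.32 over all tested genes. The exception was Polr1b, a core subunit of RNA polymerase I, at 3.11, 2.96 and 1.32 TPM in dormant and 1.11, 0 and 2.78 TPM in growing libraries. The other markers described above moved between the same libraries, alveolar type 2 markers from 465 to 472 TPM in growing to 40207 to 42496 TPM in dormant KO cells, and their part in these differences was not tested. Calls lay mostly among the abundant genes. Of the 21 genes with the higher mean TPM 9 were called, with a median SE of 0.43, and of the other 20 only Nop14 was, with a median SE of 0.88. The shares of all tested genes given here were not matched for level. The scaling moved the differences and the calls. After median-ratio scaling the median of the 41 genes was -0.80 beside 0.09 over all genes and 4 were called (9.76%, against 5.06% of all tested genes called lower), Myc, Nop56, Wdr43 and Rrs1, and after quantile normalization it was -1.02 beside -0.14. Without dormant WT library 2, which enters only through the shared spread and the filter, 19 were called lower (46.3%, against 14.2% of all tested genes). Without growing KO library 3 the count was 6 (14.6%, against 6.82%).

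**Figure D3:**
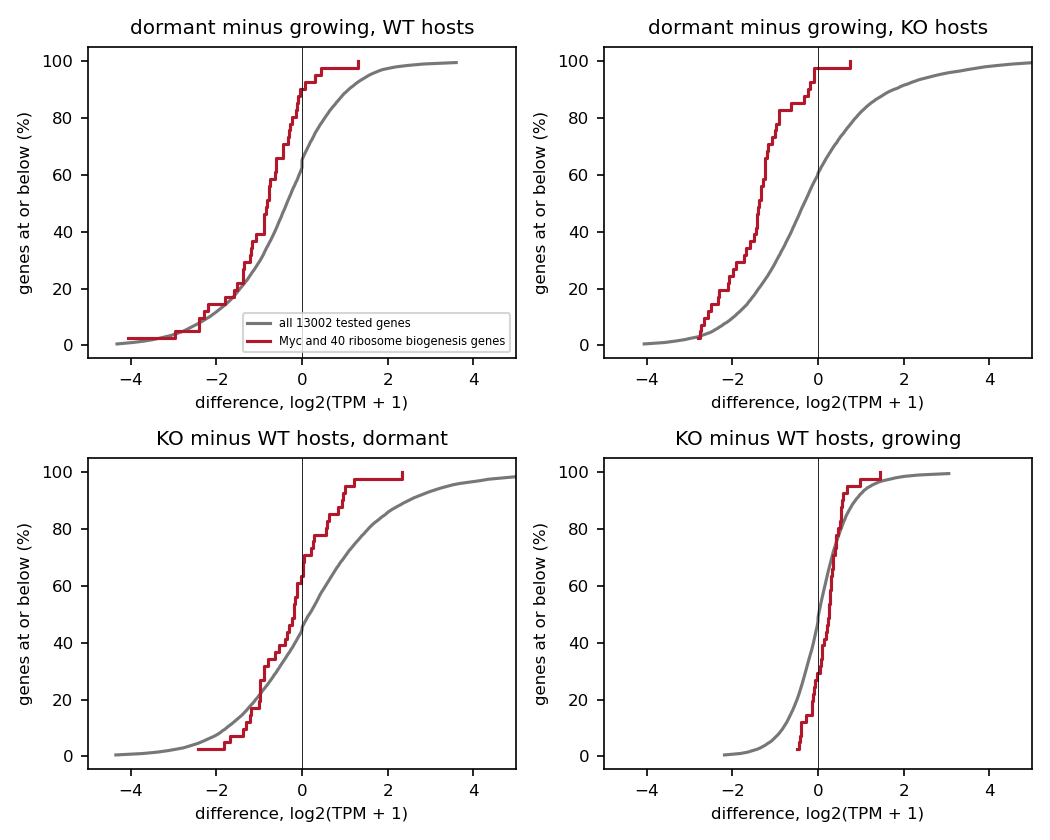
Cumulative share of genes (y axis, %) at or below each log2 difference (x axis) for the 41 genes (red) and all 13002 tested genes (gray), in the 4 pairwise comparisons. The red curve lies left of the gray one over most of its range in both state comparisons, with medians of -0.81 against -0.35 in WT and -1.38 against -0.32 in KO hosts, and its median lies to the right for growing cells (0.25 against 0.02).

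Among the 4 RNA polymerase I genes only Polr1c was called, lower in dormant than in growing KO cells, where 9.48% of all tested genes were. The difference between the state effects of the 2 hosts was called for 0 of the 4 genes. Polr1c, a subunit that RNA polymerases I and III share (chr17:46243920-46248054, minus strand), had 89.6, 155 and 42.7 TPM in the dormant WT, 120, 88.2 and 69.1 in growing WT, 30.1, 37.7 and 40.98 in dormant KO and 80.6, 88.8 and 120 TPM in growing KO libraries. The WT groups overlapped, whereas the KO groups did not (log2 difference -1.38 ± 0.43, limma adjusted p = 0.0460). This call was lost under 16 of 24 alternative settings. The other 3, Polr1a and Polr1b, the large catalytic subunits, and Tcof1, a factor for ribosomal DNA transcription, ranged from 0 to 13.4 TPM over the 12 libraries and none was called. Their differences in KO hosts were -0.999, 0.75 and -0.23.

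The multifunctional nucleolar proteins fell into an abundant and a scarce set. Npm1 had 458, 446 and 767 TPM in the dormant WT, 933, 908 and 925 in growing WT, 577, 479 and 613 in dormant KO and 1044, 1163 and 1081 TPM in growing KO libraries. Dormant libraries held 60.4% of the growing mean in WT and 50.8% in KO hosts, with no overlap, and the log2 differences of -0.77 ± 0.19 (limma adjusted p = 0.0269) and -0.98 ± 0.19 (limma adjusted p = 0.00311) were both under the minimum of 1 for a call. Dormant WT and dormant KO means were 557 ± 182 and 557 ± 69.3 TPM (SD, n = 3). Ncl, encoding nucleolin, which binds ribosomal RNA precursors, was lower in dormant than in growing KO cells (-1.39, limma adjusted p = 0.00321), as was Gnl3, encoding nucleostemin, a GTPase known from stem and tumor cells (-1.28, limma adjusted p = 0.0410, lost under 15 of 24 settings). Ddx21, an RNA helicase, had 4.35 to 8.63 TPM in the growing libraries, and Mybbp1a, a Myb-binding nucleolar protein, was not called, with differences in KO hosts of -0.09 and -1.19.

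The box C/D and box H/ACA snoRNP genes had median differences of -1.91 and -1.77 in KO hosts over 4 genes each, and dormant libraries below growing ones without overlap for 3 and 4 of them (28.3% of all tested genes). Of these 8 genes Nop56 and Nop58, core proteins of the box C/D particle, were called lower (9.48% of all tested genes). Nop56 (chr2:130274430-130279313, plus strand), which holds the guide RNA and the methyltransferase in the particle, had 229, 174 and 171 TPM in the dormant WT, 332, 415 and 309 in growing WT, 102, 96.2 and 58.3 in dormant KO and 412, 425 and 434 TPM in growing KO libraries. In order of level, dormant KO, dormant WT and growing libraries did not overlap, while the 2 growing groups did. The log2 difference between states was -0.88 ± 0.24 in WT (limma adjusted p = 0.0455) and -2.34 ± 0.24 in KO hosts (limma adjusted p = 6.05e-05). Nop58, its partner, was lower in dormant KO than in growing KO cells (-1.49 ± 0.30, limma adjusted p = 0.00452), and its difference in WT hosts was -0.05. Fbl, encoding fibrillarin, the methyltransferase itself, had 4.47, 0 and 37.0 TPM in the dormant WT, 29.5, 31.7 and 29.5 in growing WT, 32.9, 24.6 and 29.1 in dormant KO and 65.2, 32.8 and 42.0 TPM in growing KO libraries, and was not called. In the box H/ACA group, Nhp2, an RNA-binding subunit (chr11:51619735-51623714, plus strand), was the most abundant, at 307, 506 and 398 TPM in the dormant WT, 583, 673 and 599 in growing WT, 317, 301 and 351 in dormant KO and 707, 509 and 618 TPM in growing KO libraries. Dormant libraries lay below growing ones in both hosts, with differences of -0.64 (limma adjusted p = 0.0619) and -0.91 (limma adjusted p = 0.00571), both under 1. Dkc1, the pseudouridine synthase, Gar1 and Nolc1, a chaperone of snoRNPs, had dormant KO below growing KO libraries without overlap and differences of -2.57, -1.24 and -2.31, with SEs of 0.85 to 1.35.

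Of the 10 small subunit assembly genes 2 were called lower in dormant KO than in growing KO cells, where 9.48% of all tested genes were, and 8 had dormant libraries below growing ones without overlap, as had 28.3% of all tested genes. Nop14 (chr5:34638536-34660148, minus strand), a processome component, had 15.3, 43.9 and 26.8 TPM in the dormant WT, 33.2, 33.7 and 21.3 in growing WT, 0.67, 6.03 and 10.2 in dormant KO and 24.4, 28.4 and 42.7 TPM in growing KO libraries. Only the dormant KO libraries stood apart (-2.65 ± 0.68 against growing KO, limma adjusted p = 0.0170). Wdr43 (chr17:71615895-71659031, plus strand), a WD repeat protein of the processome and 1 of the genes with CACGTG shown above, had 34.0, 58.03 and 39.1 TPM in the dormant WT, 43.4, 48.1 and 48.9 in growing WT, 15.9, 14.8 and 8.52 in dormant KO and 52.0, 72.7 and 51.4 TPM in growing KO libraries. Its dormant KO libraries were again the only low ones (-2.11 ± 0.37, limma adjusted p = 0.00202). Imp3, which binds the U3 snoRNA (chr9:56937475-56938398, plus strand), was the most abundant of the group and showed no such pattern, at 68.3, 76.3 and 88.1 TPM in the dormant WT, 105, 109 and 103 in growing WT, 77.9, 119 and 86.2 in dormant KO and 163, 49.7 and 119 TPM in growing KO libraries. Its KO groups overlapped (-0.09 ± 0.39, limma adjusted p = 0.908). The other genes of the group, Noc4l, Imp4, Heatr1, Bysl, Pno1, Ltv1 and Tsr1, had differences of -2.08 to -0.18 in KO hosts and none was called. Imp4 and Pno1 are among those with CACGTG shown above, with differences of -1.16 and -1.60.

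In the PeBoW complex, which acts on the large subunit precursor, Wdr12 (chr1:60069785-60098645, minus strand) had 106, 25.6 and 58.8 TPM in the dormant WT, 60.9, 67.9 and 72.7 in growing WT, 31.4, 33.2 and 7.59 in dormant KO and 99.0, 73.1 and 79.1 TPM in growing KO libraries. The dormant KO libraries lay below the growing ones (-1.99 ± 0.59, limma adjusted p = 0.0347, lost under 12 of 24 settings), while dormant WT libraries lay on both sides of growing WT. Its partners Pes1 and Bop1 were not called (-1.42 and -0.33 in KO hosts). Of the 10 large subunit genes 7 had dormant KO libraries below growing KO ones without overlap, as had 28.3% of all tested genes. Of these 10 genes 1 was called lower in KO hosts, a share near the 9.48% of all tested genes. It was Rrs1, a factor that brings the 5S particle to the precursor (chr1:9545408-9547455, plus strand), which had 16.2, 29.9 and 18.4 TPM in the dormant WT, 36.6, 46.1 and 31.7 in growing WT, 6.85, 14.5 and 9.80 in dormant KO and 91.1, 73.2 and 63.4 TPM in growing KO libraries. Dormant lay below growing in both hosts and the difference was -0.83 ± 0.41 in WT (limma adjusted p = 0.244) and -2.80 ± 0.41 in KO hosts (limma adjusted p = 0.000600), where dormant cells held 13.7% of the growing mean. Nop16, a large subunit factor (chr13:54584185-54590090, minus strand), had 36.2, 44.1 and 111 TPM in the dormant WT, 130, 133 and 132 in growing WT, 47.1, 85.5 and 68.7 in dormant KO and 142, 125 and 146 TPM in growing KO libraries. Dormant cells held 48.2% and 48.7% of its growing mean, with differences of -1.22 (limma adjusted p = 0.0812) and -1.06 (limma adjusted p = 0.0843), which did not pass. The other 8, Nop2, Wdr74, Ddx18, Noc2l, Noc3l, Mrto4, Ppan and Nip7, had differences of -2.50 to -0.92 in KO hosts.

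**Figure D4:**
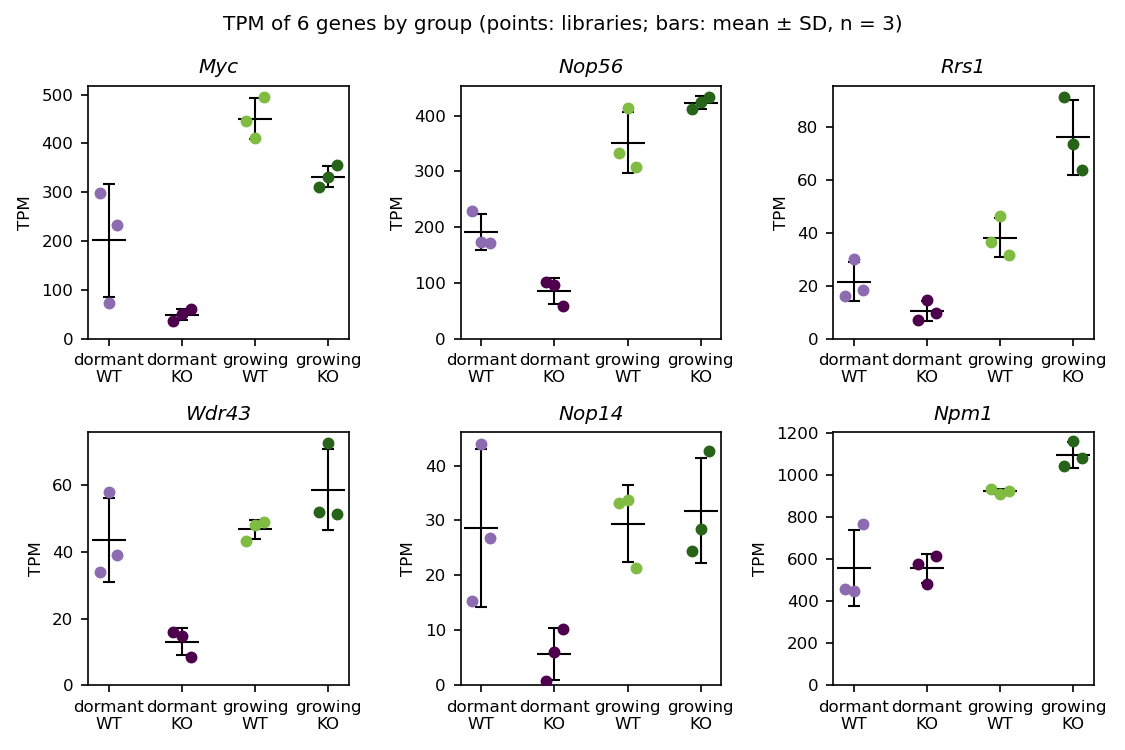
TPM of 6 genes in each library (points) with the group mean and SD (bars, n = 3). Myc, Nop56 and Rrs1 are lower in dormant than in growing libraries of both hosts, Wdr43 and Nop14 are low only in dormant KO libraries (8.52 to 15.9 and 0.67 to 10.2 TPM), and Npm1 is alike in both dormant groups.

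The comparison of hosts asked whether loss of Tgfbr2 in myeloid cells went with other levels in tumor cells of the same state. In dormant cells, 4 of the 41 genes were called lower in KO hosts, Myc, Nop56, Nop14 and Wdr43, and 0 higher, or 9.76% against 9.39% of all tested genes called lower, a share near the background, while 12.9% of all tested genes were called higher. The libraries did not overlap for 8 genes with KO below WT (19.5%, against 13% of all tested genes), and the median over the 41 was -0.18 beside 0.17. The difference was -1.18 ± 0.24 for Nop56 (limma adjusted p = 0.00370), -2.42 ± 0.68 for Nop14 (limma adjusted p = 0.0221) and -1.67 ± 0.37 for Wdr43 (limma adjusted p = 0.00658). Dormant KO means were 44.6%, 19.6% and 29.9% of the dormant WT means for these 3 genes. Under median-ratio scaling the median of the 41 turned to 0.15 beside 0.52 over all genes and 2 were called (4.88%, against 6.15% of all tested genes called lower). When only the 2 groups compared were fitted, which leaves each difference as it is and changes its error, all 4 calls were lost and 4.31% of all tested genes were called lower. Without dormant WT library 2, 8 were called lower (19.5%, against 13.4%), Dkc1, Heatr1, Bysl, Wdr12 and Nop58 joining 3 of the 4, with Nop14 lost. Without dormant WT library 1, 7 were called lower (17.1%, against 11%), and Rrp9 and Nop2 were called higher (4.88%, against 17.2% of all tested genes). The alveolar type 2, erythroid, endothelial and leukocyte markers described above differ between the same groups of libraries, and their part in these calls was not tested.

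In growing cells no gene of the 41 was called, against 0.261% of all tested genes called lower and 0.715% called higher. At an unadjusted p under 0.05 there was 1, Rrs1, which was higher in growing KO cells by 0.98 ± 0.41 (limma adjusted p = 0.570) without overlap (4.15% of all tested genes were higher at that p and 3.38% lower). The difference was below 0 for 12 of the 41 (29.3%, against 47.3%), with a median of 0.25 beside 0.02 over all tested genes. Libraries did not overlap for 10 genes with KO above WT (24.4%, against 13.3% of all tested genes) and for 2 with KO below WT (4.88%, against 10.6%), which were Myc and Imp4. Npm1 was 1 of the 10, at 1096 ± 60.9 TPM (SD, n = 3) in growing KO against 922 ± 12.6 TPM in growing WT cells.

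Whether the state difference itself depended on the host was tested by the interaction, that is, the dormant minus growing difference of KO hosts less the same difference of WT hosts. It was called for 2 of the 41 genes, both lower (4.88%, against 3.91% of all tested genes called lower, a share near the background), and for 0 higher (6.18% of all tested genes). For Nop56 it was -1.46 ± 0.34 (limma adjusted p = 0.0179) and for Wdr43 -1.98 ± 0.53 (limma adjusted p = 0.0349). Both calls were lost after median-ratio scaling and after quantile normalization, and without growing WT library 1 or growing WT library 3. Rrs1 (-1.97, limma adjusted p = 0.0536) and Nop58 (-1.43, limma adjusted p = 0.0549) lay just above the threshold. The median over the 41 genes was -0.39 beside 0.16 over all tested genes, and became 0.07 beside 0.51 after median-ratio scaling. Of the 41 genes, 37 had a difference of log2(TPM + 1) between dormant and growing cells below 0 in both hosts. The share of all tested genes was not computed for this joint count. By mean TPM some of the 37, Gar1 and Bop1 among them, were higher in dormant than in growing WT cells. For 29 of the 41 genes the interaction was below 0 (70.7%, against 45.7% of all tested genes). Without dormant WT library 2, 5 genes were called lower (12.2%, against 6.45% of all tested genes), Myc, Nop58 and Dkc1 joining Nop56 and Wdr43, and without library 1 the count was 6 (14.6%, against 5.69%).

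**Figure D5:**
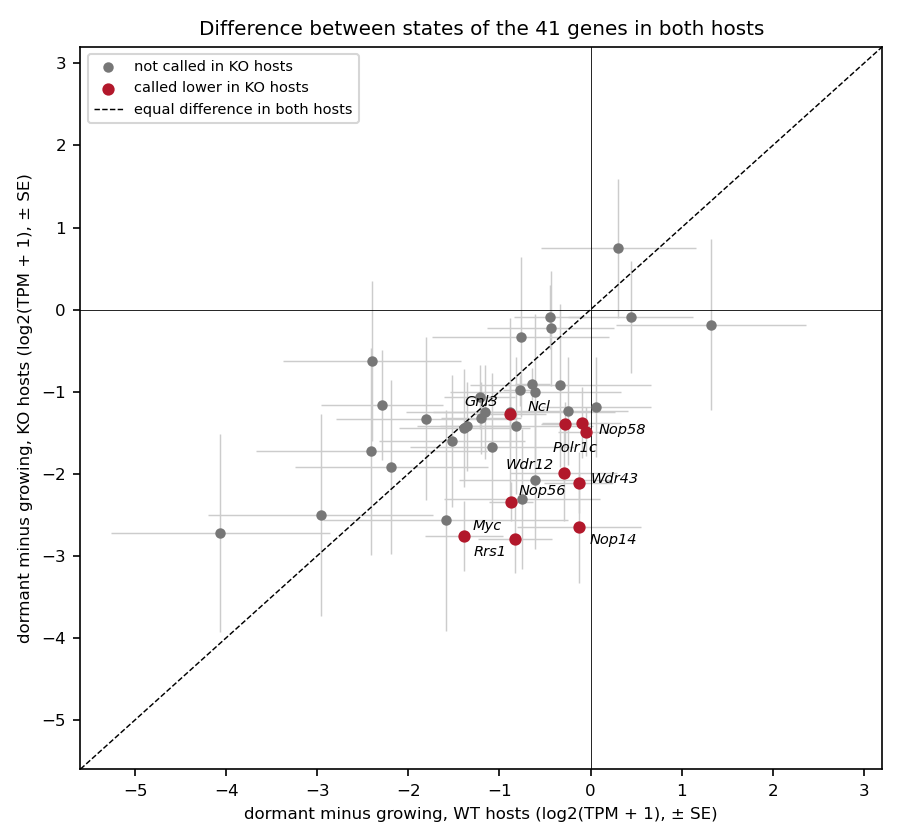
Log2 difference between dormant and growing cells of each of the 41 genes in WT hosts (x axis) and KO hosts (y axis), with SE bars. The dashed line marks equal differences, the 10 genes called lower in KO hosts, a choice made on the y axis, are in red, and 37 genes lie below 0 on both axes.

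Other genes of the same pathway were read from 5 lists. In WT hosts, genes called lower in dormant cells numbered 0 of 11 tested in the Myc network, 3 of 12 other RNA polymerase I genes, 6 of 42 other small subunit genes, 2 of 46 other large subunit genes and 6 of 34 Myc targets outside the nucleolus, and 0 were called higher. Against the 5.67% of all tested genes called lower, the Myc network (0%) and the large subunit genes (4.35%) lay below that share and the other 3 lists above it (14.3% to 25%). Those with large differences included Taf1b and Taf1a, subunits of the promoter selectivity factor of RNA polymerase I (-4.50 and -3.32, limma adjusted p = 0.000465 and 0.00721), Riok2, a small subunit kinase (-4.76, limma adjusted p = 0.000299), and Prmt5, an arginine methyltransferase (-3.25, limma adjusted p = 0.0313). Taf1b was listed at 0 TPM in all 3 dormant WT libraries and Taf1a in 2 of them. In KO hosts the counts called lower were 2, 1, 6, 9 and 19, again with 0 higher, and the share ran from 8.33% for RNA polymerase I genes to 55.9% for Myc targets, against 9.48% of all tested genes. In the order of the lists, the KO counts became 2, 1, 2, 3 and 10 after median-ratio scaling and 2, 1, 4, 3 and 15 after quantile normalization, where 5.06% and 7.37% of all tested genes were called lower. The WT counts became 0, 3, 3, 1 and 3, and 0, 2, 2, 1 and 3 (4.61% and 3.68% of all tested genes), with 1 Myc target called higher under each. All 34 Myc targets had a difference below 0, with a median of -1.55 beside -0.32 over all tested genes. Genes called lower included Ftsj3, a large subunit methyltransferase (-3.83, limma adjusted p = 0.00210), Eif6, an anti-association factor of the large subunit (-2.69, limma adjusted p = 5.25e-05), Mxd3, a Max partner (-4.35, limma adjusted p = 0.0171), Rrn3, the polymerase I initiation factor (-2.17, limma adjusted p = 0.000953), Prmt5 (-3.78, limma adjusted p = 0.00654), Wdr3, a small subunit processome factor (-3.04, limma adjusted p = 0.0333), and Phb2, a prohibitin (-2.68, limma adjusted p = 0.000126). Max itself, the partner of Myc, had 12.3, 29.3 and 0 TPM in the dormant WT, 3.65, 0.75 and 2.99 in growing WT, 4.36, 6.58 and 15.9 in dormant KO and 3.17, 0.05 and 1.57 TPM in growing KO libraries.

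Between hosts, dormant KO cells had 1 of 11, 2 of 12, 2 of 42, 8 of 46 and 9 of 34 genes of these lists called lower than dormant WT cells, and 0, 2, 3, 1 and 0 called higher. Against 9.39% of all tested genes called lower, the Myc network (9.09%) lay near that share and the small subunit genes (4.76%) below it, while the others were at 16.7% to 26.5%. Against 12.9% called higher, only the RNA polymerase I genes (16.7%) lay above that share. After median-ratio scaling these counts were 0, 2, 1, 7 and 5 lower and 0, 3, 3, 2 and 1 higher, where 6.15% of all tested genes were called lower and 17.6% higher. After quantile normalization they were 1, 2, 3, 7 and 7 lower and 0, 3, 1, 3 and 0 higher, with 11.6% of all tested genes called in each direction. Those higher included Taf1b and Taf1a (4.10 and 2.76, limma adjusted p = 0.000181 and 0.00588) and Riok2 (2.97, limma adjusted p = 0.00155), the genes that were near 0 in dormant WT libraries. Those lower included Rrn3 (-3.14, limma adjusted p = 5.87e-05), Ftsj3 (-3.38, limma adjusted p = 0.00367) and Odc1, the rate-limiting enzyme of polyamine synthesis and a Myc target (-2.86, limma adjusted p = 3.03e-05). Odc1 had 264, 193 and 184 TPM in the dormant WT, above growing WT at 98.4, 112 and 120 TPM, and 20.3, 34.6 and 31.5 TPM in dormant KO libraries, below growing KO at 86.3, 88.4 and 77.8 TPM. In growing cells none of the tested genes of the 5 lists was called between hosts by limma. The interaction was called lower for 0, 1, 0, 3 and 7 genes and higher for 0, 2, 1, 0 and 0, against 3.91% and 6.18% of all tested genes. The share called lower was highest for the Myc targets, at 20.6%. For the Myc targets the count called lower was 5 after median-ratio scaling and 8 after quantile normalization (2.3% and 3.68% of all tested genes), and for the other 4 lists no count moved by more than 1 gene.

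On the GRCm38 annotation, 18 of the 41 genes overlap a gene on the opposite strand, Nop56, Gnl3, Nop14, Wdr43 and Wdr12 of the genes called among them, and the use of strand in counting was not stated, so reads of the partners may not be separable. Introns of 8 genes host snoRNAs (Ncl, Gnl3, Nop56, Nop58, Dkc1, Wdr43, Tsr1 and Ppan), and Mrto4 has 2 pseudogenes named after it.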

How the data were processed

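The submitters' processing notes name Cutadapt 1.18, STAR 2.5.2b, the mm10 build and RSEM 1.3.3, and the authors' methods use these tools for trimming, alignment and estimation of gene levels, with other versions given there for Cutadapt and RSEM. The methods describe Smart-seq2 libraries, and the labels a TruSeq mRNA kit. The deposited values are TPM, which keep no depth, so the precision given is the spread between 3 libraries per group. P-values measure the spread between these libraries. A further 30 columns that match no labelled sample were not used.

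TPM was analysed as log2(TPM + 1) with limma 3.58.1 (R 4.3.3, eBayes with trend), with 1 mean per group and 8 residual degrees of freedom over all 12 libraries. The authors used DESeq2, which was not used here because TPM is not a count. A gene was tested where 3 or more libraries had 1 TPM or more. Calls required a Benjamini-Hochberg adjusted p of at most 0.05 and a log2 difference of at least 1. The script was tested on simulated data. The 41 genes and all gene lists were chosen with earlier results of these data known. Values in every library were given for Myc, for the most abundant gene of each role and for up to 4 called genes per direction and comparison whose libraries did not overlap, and other genes named with values in every library were chosen after those values were seen. The same rule, with up to 2 genes, was used for the pathway lists, from which the text gives examples. Alternatives covered pseudocounts, filters, scalings, weights, thresholds, the groups fitted, a replicate block and each library left out. Gene coordinates are from the GENCODE M21 annotation of GRCm38, on which 38 of the 41 gene identifiers had the deposited version. Same-numbered libraries of 1 host did not deviate together.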

Additional observations from a re-analysis of the deposited data

Results flagged for a closer look

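For Nop56 and Wdr43 the limma interaction test called the difference between dormant and growing cells lower in KO than in WT hosts. These 2 are 4.88% of the 41 genes, a share near the 3.91% of all tested genes called lower. For Nop56 the difference was lower in KO than in WT hosts by a log2 difference of -1.46, with dormant libraries below growing ones without overlap in both hosts. For Wdr43 it was lower in KO than in WT hosts by -1.98, with groups that overlapped in WT and did not overlap in KO hosts. Both calls were lost under median-ratio scaling, quantile normalization and the replicate block within host, and over 23 alternatives Wdr43 lost its call in 14 and Nop56 in 6. Host and library batch cannot be told apart. In the same interaction 7 of 10 alveolar type 2 markers (70%), 4 of 5 erythroid genes (80%), 5 of 8 endothelial markers (62.5%) and 2 of 8 leukocyte markers (25%) were called higher, against 6.18% of all tested genes, and their part in the calls was not tested.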

How the results depend on the processing

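Neither the Myc differences nor those of the called genes changed sign under the alternatives tried. For genes called lower in dormant WT cells (0 as reported), pseudocount 5, a filter of TPM at least 5, quantile normalization and a fit of the compared groups only gave 1 each (2.44%, against 3.8%, 7.71%, 3.68% and 5.78% of all tested genes), and dropping the minimum difference gave 2 (4.88%, against 6.51%). For those lower in dormant KO cells (10), median-ratio scaling gave 4, array weights 26, the compared groups only 19 and an adjusted p of at most 0.01 gave 6, and 5.06%, 16.8%, 14.4% and 5.03% of all tested genes were called lower under them, against 9.48% as reported. For dormant cells between hosts (4 lower, 0 higher), median-ratio scaling and array weights gave 2 lower each, the compared groups only gave 0 lower, and quantile normalization gave 1 higher, Fbl (6.15%, 4.51% and 4.31% of all tested genes lower, and 11.6% higher). For the interaction (2 lower), the TPM filter of 5 gave 4 (9.76%, against 5.95%), array weights gave 1 (2.44%, against 3.11%), and median-ratio scaling, quantile normalization and an adjusted p of at most 0.01 gave 0 each (against 2.3%, 3.68% and 1.73%). Myc in dormant cells between hosts, at -1.81, lost its call in the fit of the compared groups only (limma adjusted p = 0.113), which leaves the difference as it is.

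Leaving out each library in turn gave 0 to 6 genes called lower and 0 to 1 higher in WT hosts, 6 to 19 lower and 0 higher in KO hosts, 3 to 8 lower and 0 to 2 higher between hosts in dormant cells, 0 in growing cells, and 0 to 6 lower and 0 to 1 higher for the interaction. Besides the libraries named above, leaving out dormant KO replicate 3 gave 1 gene lower in WT hosts, Mrto4 (2.44%, against 5.62% of all tested genes). The interaction count was 5 without dormant WT replicate 3 (12.2%, against 5.54%), 4 without dormant KO replicate 2 (9.76%, against 4%) and 1 when each other KO library, or growing WT replicate 2, was left out in turn (2.44%, against 2.7% to 3.12%). The Myc difference ranged from -1.79 to -0.77 in WT hosts, where it was called without dormant WT replicate 1 (-1.79) or 3 (-1.60), from -2.92 to -2.57 in KO hosts, from -2.43 to -1.41 between hosts in dormant cells, from -0.50 to -0.37 in growing cells and from -1.99 to -0.97 for the interaction.

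Same-numbered libraries of 1 host had deviations from their group means correlated at -0.012 to 0.021. With 3 libraries per group, these values cannot decide whether such libraries came from the same mouse. With the replicate block, 9 genes were lower in KO hosts (22%, against 8.46% of all tested genes), 4 between hosts in dormant cells (9.76%, against 8.71%) and 1 for the interaction (2.44%, against 3.09%). A replicate block within host, added after seeing the data, gave 7 lower in KO hosts (17.1%, against 6.72%) and 0 for the interaction (against 1.91%). TPM keeps no depth. Genes listed at 0 in some dormant WT libraries have wide intervals in every comparison, since the spread of a gene is pooled over the groups.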
